A study of Mus musculus with 16 samples.

Results

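The replication-dependent histone genes of mouse macrophages were followed through an interferon-gamma response on expression arrays. The members were all array features whose platform annotation holds a symbol made of H1f, H2ac, H2bc, H3c or H4c and digits. Older names of those genes counted too. This rule used no measured value, but the members were chosen with earlier results of these data known. The rule gave 56 of the 35557 features of the table. Of these 8 belong to linker histone H1, 4 to H2A, 16 to H2B, 13 to H3 and 12 to H4. The other 3 list genes of more than 1 class. Of the 56 features, 30 carry 1 symbol and 26 carry several. Within a core histone class the coding sequences are nearly identical, so 1 set of probes can read many copies. That does not cover the 3 features that list genes of more than 1 class, and no probe sequences were compared. The 26 shared features hold 8 distinct sets of symbols, so they are not independent measurements of different genes. Among 66 gene symbols, 30 have a feature of their own and 36 are read on shared features alone. The rule also takes in genes that are not coupled to DNA replication in body cells: the replacement linker histone H1f10, the germ-cell linker histones H1f6, H1f7 and H1f8, and the testis copies H2ac1 and H2bc1.

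Histone proteins package DNA, with H2A, H2B, H3 and H4 forming the nucleosome core and H1 binding the linker. The replication-dependent genes lie in clusters, are transcribed mainly in S phase, and give mRNAs that end in a stem-loop in place of a poly(A) tail and are degraded when DNA synthesis stops. Replacement histones such as H3.3 come from single genes outside the clusters and are made throughout the cell cycle.

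The macrophages were derived from bone marrow with L-cell conditioned medium. The mice carry an H3.3-HA knock-in allele, which adds an HA tag to H3.3, and all 6 groups share that allele and medium. Naive cells had no earlier interferon, and pretreated cells are tied to earlier interferon by a token in the sample titles. Each was taken after 0 h, 3 h and 6 h of interferon-gamma, with 4 arrays at 0 h and 2 at each later time. Age, pretreatment dose and duration, and whether replicates came from separate cultures or animals, were not given in the sources used here, so p-values reflect the spread among these samples alone, and it may be technical. The arrays fall into 2 sets by the numbering in their titles. In set 1 are all 6 h arrays and, from each 0 h group, replicates 1 and 2. In set 2 are all 3 h arrays and the remaining 0 h replicates, 3 and 4.

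The deposited log2 intensities had array medians of 7.15 to 7.23 in set 1 and 6.89 to 7.0 in set 2, and levels were compared within a set only. Each log2 change sets 2 arrays against 2 arrays of a set, except at 0 h, where 4 stand against 4, and the value after ± is the SE from 1 limma fit to all 16 arrays. Adjusted p-values are Benjamini-Hochberg values over all 35557 features, and a feature is said to rise or fall at an adjusted p under 0.05. Counts at an unadjusted p under 0.05 are given for the members only. The share of all features at that unadjusted threshold was not counted, so these counts have no background beside them. All 8 macrophage markers had means of 11.4 to 13.82. A mean of 6.5 is used here as the limit of dim features, and 21352 of the 35557 features lay at or above it. All 4 dendritic cell markers did too, at 6.63 to 7.4, as did some markers of each other cell type. The interferon targets Cxcl9, Gbp5 and Irf1 rose at 3 h and 6 h in both groups. No untreated cells were taken at 3 h or 6 h, so the effects of interferon and of time in culture cannot be told apart. In bulk RNA, fewer cells in S phase and less histone RNA per cell cannot be told apart.

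Where these genes start their transcripts, many of them share short sequence elements. RefSeq (GRCm38.p6) gave promoter windows for 61 of the 66 genes, in all 62 windows of 300 bases, and held none for H2bc21, H2bc4, H3c1, H3c7 and H4c14. Of the 62 windows, 54.8% held the TATA sequence TATAAA on either strand, against 13.6% of all 32851 RefSeq windows of that length. Matches were counted anywhere in the window, from 250 bases before the start in H4c6 to 42 after it in H4c1. CCAAT, read as CCAAT or ATTGG, stood in 83.9% against 37.4%, and it was found in all 17 H2A, all 15 H2B and all 10 H3 windows but in 3 of 11 H4 windows. The octamer ATTTGCAT, a known element of H2B promoters, stood in 21.0% against 1.74% and was found in 7 H2B and 6 H2A windows. All 9 pairs of overlapping windows on opposite strands joined an H2A and an H2B gene, so 1 site of any element can be counted in both. Of the 6 H2A windows with the octamer, those of H2ac1, H2ac8 and H2ac12 are in such pairs. Those of H2ac4, H2ac6 and H2ac20 are not. The H1 box AAACACA stood in 14.5% against 7.18%, and 5 of 9 H1 windows held it, 112 to 122 bases before the start.

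Stretches of 160 bases that end 10 bases after the start are shown for 6 genes on which the results turn. H2ac4 (chr13:23750938-23751097 on the plus strand), H2bc3 (chr13:23746584-23746743 on the plus strand) and H1f5 (chr13:21780616-21780775 on the minus strand) had the largest single-gene falls. H4c6 (chr13:23551659-23551818 on the minus strand) fell too. The germ-cell gene H1f6 (chr13:23695661-23695820 on the plus strand) and the replacement gene H1f10 (chr6:87981473-87981632 on the minus strand) did not pass the test. Capitals mark the TATA sequence, CCAAT, the octamer and the H1 box on either strand, and no matches overlap in these stretches.
H2ac4: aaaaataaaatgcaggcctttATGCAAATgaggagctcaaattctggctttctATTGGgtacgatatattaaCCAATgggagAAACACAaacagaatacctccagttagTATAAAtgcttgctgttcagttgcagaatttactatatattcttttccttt
H2bc3: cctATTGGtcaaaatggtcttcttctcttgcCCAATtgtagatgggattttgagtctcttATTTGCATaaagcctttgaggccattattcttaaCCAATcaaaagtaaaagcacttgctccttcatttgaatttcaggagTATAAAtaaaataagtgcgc
H1f5: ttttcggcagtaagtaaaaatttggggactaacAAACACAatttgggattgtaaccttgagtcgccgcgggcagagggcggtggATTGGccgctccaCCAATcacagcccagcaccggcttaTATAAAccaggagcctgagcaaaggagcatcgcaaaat
H4c6: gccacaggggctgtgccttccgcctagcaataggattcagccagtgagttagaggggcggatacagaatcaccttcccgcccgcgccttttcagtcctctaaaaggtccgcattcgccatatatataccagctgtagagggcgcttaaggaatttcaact
H1f6: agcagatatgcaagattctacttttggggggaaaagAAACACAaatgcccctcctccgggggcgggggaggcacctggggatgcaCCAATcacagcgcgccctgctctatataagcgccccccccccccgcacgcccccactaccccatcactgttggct
H1f10: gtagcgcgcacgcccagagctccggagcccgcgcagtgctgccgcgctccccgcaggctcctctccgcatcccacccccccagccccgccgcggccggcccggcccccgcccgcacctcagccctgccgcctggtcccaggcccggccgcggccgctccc
H1f6, which was not called, carries the H1 box and CCAAT as H1f5 does, and H4c6, which fell, holds none of these letters in its stretch. A match is a description of the letters and shows no binding.

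In naive cells the 3 h changes in histone RNA were mostly small and downward. Of 56 features, 1 fell and none rose, against 1.05% lower and 2.7% higher over all features, while 5 had an unadjusted p under 0.05. The median log2 change of the members was -0.21 and that of all features -0.01. It was below 0 for 53 of the 56 members, against 18345 of all 35557 features. H2bc8, a core histone H2B gene, stood at 8.66 and 8.29 on the naive 0 h arrays of set 2 and at 7.90 and 7.66 at 3 h, with the pairs not overlapping. It fell by 0.69 ± 0.16 (limma adjusted p = 0.0378), to 61.9% of its 0 h level. The call was lost without 13 of the 16 arrays in turn. H1f1, a linker histone, was next with H2bc22, at -0.80 ± 0.30 (limma adjusted p = 0.241) and -0.36 ± 0.13 (limma adjusted p = 0.236). The 10 shared H3 features lay at -0.14 to -0.08. On the naive arrays of set 2 they stood at 13.70 to 14.09, near the highest value of any feature on an array of that set (14.25 to 14.43), and whether their range was compressed there was not tested. In 37 of 56 features both 0 h arrays of the set were above both 3 h arrays, against 24% of all features.

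**Figure D1:**
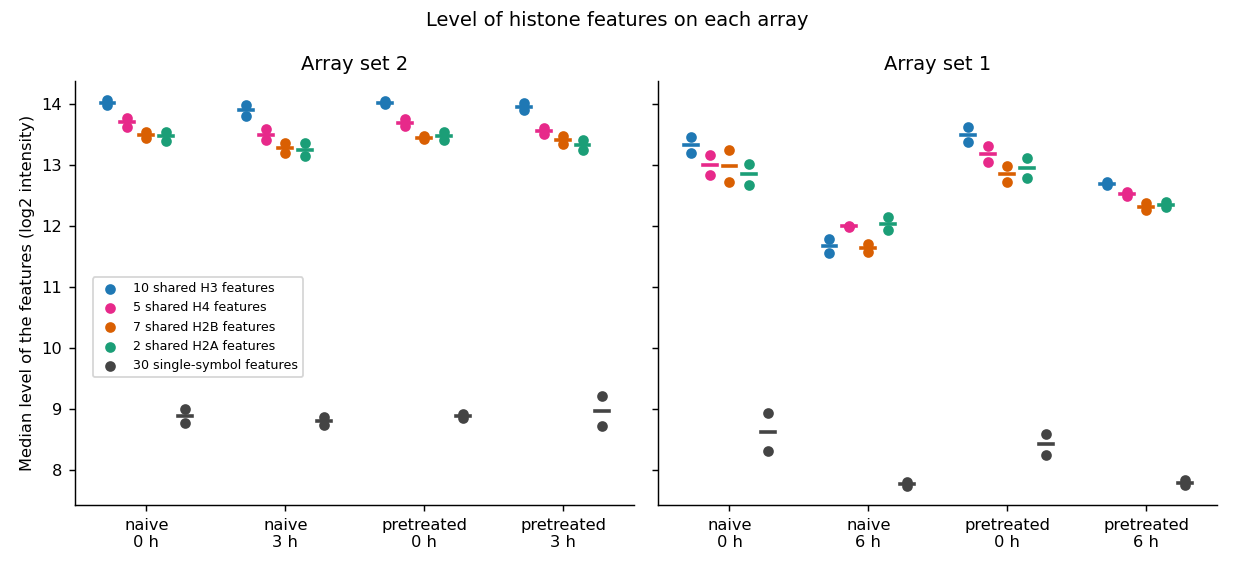
Median log2 intensity of the shared H3, H4, H2B and H2A features and of the single-symbol features on each array, with 0 h and 3 h in set 2 and 0 h and 6 h in set 1; each point is 1 array and each line the mean of 2. In set 1 the 6 h arrays of all 5 kinds lie below the 0 h arrays of the same group, and in set 2 the 0 h and 3 h points lie close together.

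After 6 h in naive cells histone RNA was far lower. Of 56 features 43 fell and none rose, against 6.3% lower and 5.63% higher over all features. Among annotated features the shares were 9.91% and 7.4%, and among those with a mean of at least 6.5 they were 11.8% and 9.9%, each fitted on its own. The median log2 change was -1.12, to 45.9% of the 0 h level, and the median of all features was -0.01. The 43 falls ranged from -2.75 to -0.66. In 52 of 56 features both 0 h arrays of set 1 were above both 6 h arrays, against 26.9% of all features. Of the 43 calls 30 were kept with any 1 of the 16 arrays left out, and the count then ranged from 31 to 43. With the features of each symbol set averaged into 1 value before the fit, which leaves 38 values, 25 fell.

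Among linker histones 4 of 8 features fell, all of them somatic H1 genes of the cluster. H1f5 stood at 10.25 and 10.90 at 0 h and at 8.48 and 8.63 at 6 h, with a clear gap between the pairs. It fell by 2.03 ± 0.32 (limma adjusted p = 0.00165), to 24.6% of its 0 h level. H1f1 fell by 1.51 ± 0.30, H1f2 by 1.0 ± 0.20 and H1f3, a dim feature, by 0.69 ± 0.17. The other 4 were the genes outside the replication-dependent class. H1f10 was at -0.32 ± 0.20 (limma adjusted p = 0.445), and the germ-cell genes H1f6, H1f7 and H1f8 lay between -0.07 and 0.08, with H1f6 and H1f8 under a mean of 6.5.

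H2A genes held the largest fall. H2ac4 stood at 7.86 and 8.95 at 0 h and at 5.76 and 5.56 at 6 h, under the dim limit on both 6 h arrays. It fell by 2.75 ± 0.32 (limma adjusted p = 0.000211). H2ac15 stood at 11.81 and 12.23 at 0 h and at 10.21 and 10.30 at 6 h, so its pairs were far apart and close within each time. It fell by 1.77 ± 0.16 (limma adjusted p = 3.28e-05), to 29.4% of its 0 h level. H2ac8, dim throughout, fell by 0.83 ± 0.17, and the testis copy H2ac1 was at -0.01 ± 0.21 (limma adjusted p = 0.995), unlike the testis copy H2bc1, given with the H2B genes. The 2 shared H2A features, which also list H2ax and H3c4, fell by 0.72 and 0.91.

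Of the H2B features 13 of 16 fell. H2bc3 stood at 10.39 and 11.17 at 0 h and at 8.42 and 8.12 at 6 h, without overlap. It fell by 2.51 ± 0.30 (limma adjusted p = 0.000239), to 17.5% of its 0 h level. H2bc14 fell by 1.64 ± 0.28, and H2bc9 and H2bc8 by 1.13 ± 0.26 and 1.12 ± 0.16. The 7 shared H2B features, which read 14 or 15 genes each, fell by 1.22 to 1.44, and 2 of them hold the same values on all arrays. The testis copy H2bc1 stood at 6.84 and 7.41 at 0 h and at 6.34 and 6.32 at 6 h. It fell by 0.80 ± 0.23 (limma adjusted p = 0.0437), to 57.6% of its 0 h level, and the call was kept in 3 of the 16 fits with 1 array left out. A feature that lists H2bc6 and H1f4 fell by 0.88 ± 0.20. H2bc4 stood at 11.94 and 11.68 at 0 h and at 11.67 and 11.30 at 6 h, so its pairs were barely apart. Its change was -0.32 ± 0.38 (limma adjusted p = 0.772). H2bc21, whose product is known from olfactory neurons, was at -0.36 ± 0.22 (limma adjusted p = 0.413), and H2bc18 at -0.82 ± 0.32 (limma adjusted p = 0.138). For H2bc4 the 95% interval ran from -1.15 to 0.51, so a fall as large as the median of the members lies inside it.

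All 10 shared H3 features fell, by 1.37 to 1.75. Each lists the same 12 H3 genes. H3 feature 10408083 stood at 13.18 and 13.48 at 0 h and at 11.51 and 11.66 at 6 h. Its pairs were farther apart than any spread within them, and it fell by 1.75 ± 0.13 (limma adjusted p = 9.54e-06). Averaged into 1 value, the H3 set fell by 1.63 ± 0.13 (limma adjusted p = 1.85e-05). The H3 genes with features of their own did not pass: H3c4 was at -0.57 ± 0.19 (limma adjusted p = 0.0772), H3c15 at -0.52 ± 0.38 and H3c7 at -0.41 ± 0.17. H3c7 is a dim feature, with a mean of 4.11. H3c15, with a mean of 6.67, lay just above the dim limit and stood at 6.49 and 6.03 at 6 h.

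Of 12 H4 features 10 fell. H4c6 stood at 9.63 and 10.73 at 0 h and at 8.41 and 8.59 at 6 h, and its naive 0 h arrays of set 1 were farther apart than those of any other member. It fell by 1.68 ± 0.36 (limma adjusted p = 0.0102). H4c4 stood at 12.84 and 13.22 at 0 h and 12.16 and 12.05 at 6 h, a fall of 0.93 ± 0.13 (limma adjusted p = 0.000767). The 5 shared H4 features with 11 genes each fell by 0.98 to 1.14, of which 2 hold the same values, and the feature of H4c17 and H4c11 fell by 1.33 ± 0.28. H4c3 at -0.99 ± 0.31 (limma adjusted p = 0.0646) and H4c9 at -0.53 ± 0.18 (limma adjusted p = 0.0934) did not pass.

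Of the 66 genes 53 lie on chromosome 13 and 10 on chromosome 3, the major and the minor cluster, with 2 on chromosome 6 and 1 on chromosome 15. Of the single-symbol features, 16 of 23 from chromosome 13 fell with a median of -0.99, and 1 of 4 from chromosome 3 with a median of -0.66. None of the 2 from chromosome 6, H1f10 and H1f8, or the 1 from chromosome 15, H1f7, passed the limma test.

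**Figure D2:**
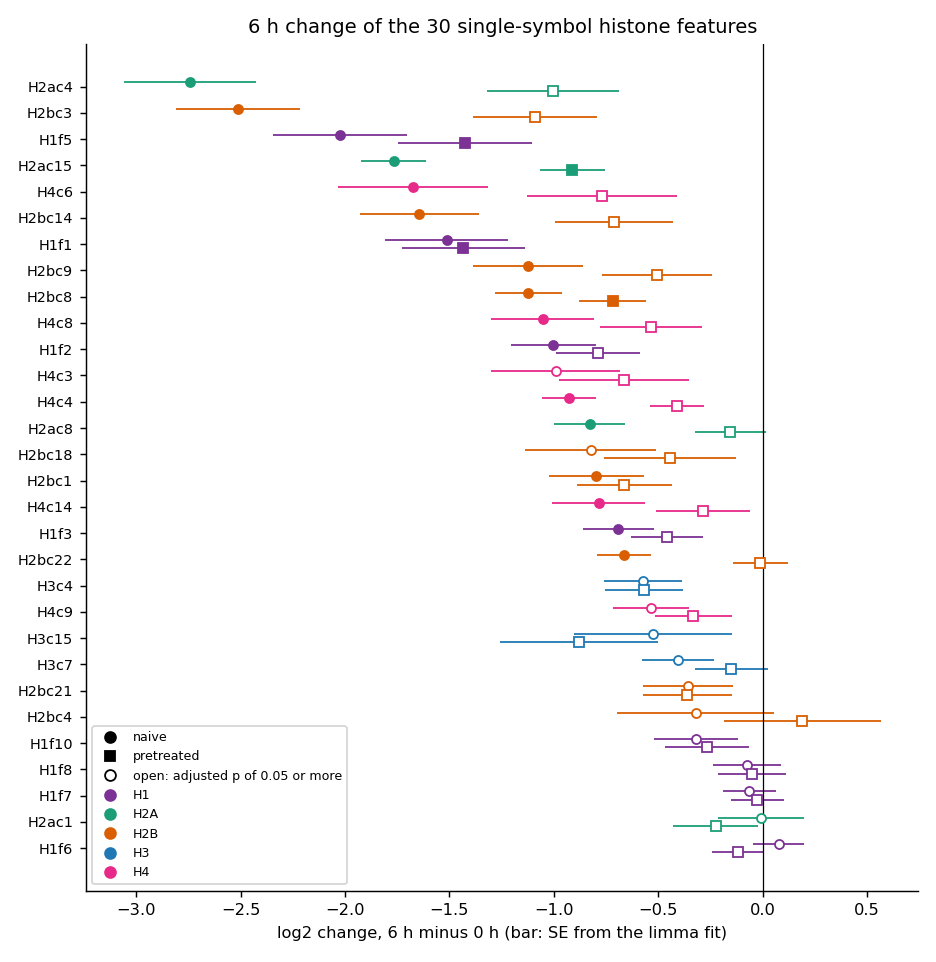
Log2 change from 0 h to 6 h of the 30 single-symbol histone features in naive cells (circles) and pretreated cells (squares), coloured by class, with SE bars and open symbols where the adjusted p is 0.05 or more. H2ac4, H2bc3 and H1f5 had the largest falls in naive cells, 17 circles and 4 squares are filled, H1f6, H1f7, H1f8 and H2ac1 lie near 0 in naive cells, and the testis copy H2bc1 is among the filled circles at -0.80.

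The naive 6 h response was larger than the 3 h response. The difference of the responses, 6 h minus 3 h, was below 0 for 54 of 56 features and passed the test downward for 17, against 0.394% of all features downward and 0.18% upward, with none of the members upward. The 17 were all 10 shared H3 features, 5 shared H2B features, H2ac4 and H2ac15. H3 feature 10408083 stood at 13.94 and 14.02 at 0 h of set 2 and at 13.75 and 13.94 at 3 h, where the change was -0.14 ± 0.13. Its difference of responses was -1.60 ± 0.18 (limma adjusted p = 0.00783). H2ac4 stood at 10.62 and 10.74 at 0 h of set 2 and at 10.11 and 10.44 at 3 h, and its difference was -2.34 ± 0.45 (limma adjusted p = 0.05, under the threshold before rounding). Time and array set cannot be told apart in this difference, and the 10 H3 features stood nearer the top of the scale in set 2 than in set 1, where the naive 0 h arrays read 12.98 to 13.54. With 1 naive array left out, the count was 0 (0 h replicate 2 or 3 h replicate 2) or 7 (0 h replicate 4). It was 8 (6 h replicate 1), 9 (0 h replicate 3 or 3 h replicate 1) or 11 (6 h replicate 2). Without naive 0 h replicate 1 it was 19. It was 10 without any 1 of pretreated 0 h replicates 3 and 4 and the pretreated 3 h and 6 h arrays, and 3 of 38 when symbol sets were averaged.

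**Figure D3:**
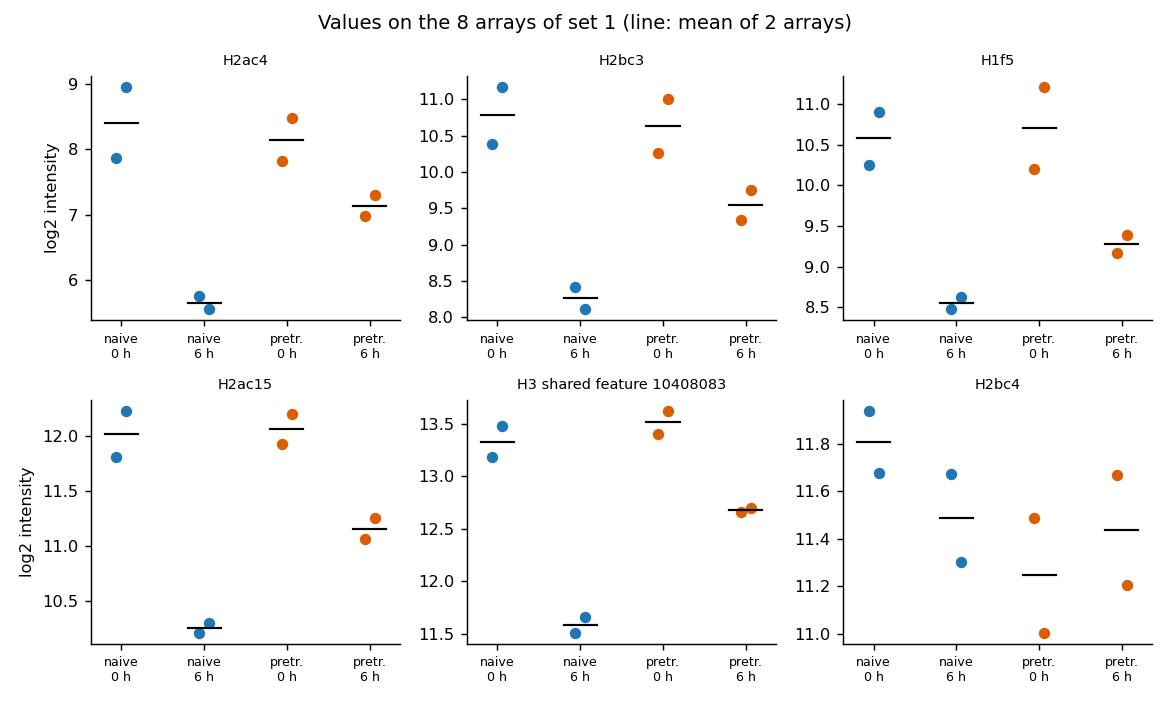
Log2 intensity of 6 histone features on the 8 arrays of set 1, with blue points for naive and orange points for pretreated cells and a line at the mean of 2 arrays; each panel has its own axis, which does not start at 0. H2ac4, H2bc3, H1f5, H2ac15 and the H3 feature are lower at 6 h, with the pretreated 6 h arrays above the naive 6 h arrays. H2bc4 overlaps between times in pretreated cells, and in naive cells its times are barely apart.

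The earlier interferon left no detected difference at 0 h. None of the 56 features was called by limma in pretreated against naive cells before restimulation, against 0.658% higher and 0.124% lower over all features, and 3 had an unadjusted p under 0.05. The median was 0.03. H2bc8, at -0.33 ± 0.11 (limma adjusted p = 0.448), and H1f2, at -0.40 ± 0.14 (limma adjusted p = 0.46), came closest. The interval of H3 feature 10408083 ran from -0.10 to 0.29 around 0.10. The 0 h difference was tested between the sets too, and no member passed (0 of all features, limma), with 0 members at an unadjusted p under 0.05.

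At 3 h none of the features was called in pretreated cells by limma, against 1.42% higher and 0.444% lower over all features, and 3 had an unadjusted p under 0.05. The median was -0.11. H3c4 was closest, at -0.53 ± 0.19 (limma adjusted p = 0.272). In 23 of 56 features both 0 h arrays lay above both 3 h arrays, against 18.1% of all features. Pretreated against naive cells at 3 h gave no member call by limma, against 0% higher and 0.00281% lower, and 2 members had an unadjusted p under 0.05. The difference of the 3 h responses gave none either, against 0% higher and 0.0731% lower, with 0 at an unadjusted p under 0.05 and a range of the members from -0.21 to 0.35.

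After 6 h histone RNA fell in pretreated cells as well, in fewer features. Of 56 features 21 fell and none rose, against 1.47% lower and 2.45% higher over all features, and all 21 had fallen in naive cells. Among annotated features the shares were 2.58% and 2.86%, and among those with a mean of at least 6.5 they were 3.07% and 4.65%. The median was -0.59, to 66.4% of the 0 h level, against a median of all features of -0.02. In 49 of 56 features both 0 h arrays lay above both 6 h arrays, against 19.6% of all features. The 21 were 9 shared H3, 5 shared H4 and 2 shared H2B features, 1 shared H2A feature, H1f1, H1f5, H2ac15 and H2bc8. The count was 7 without pretreated 0 h replicate 2, 2 without pretreated 6 h replicate 1 and 9 without pretreated 6 h replicate 2, and with symbol sets averaged 7 of 38 fell. The calls kept with any array left out were those of H3 features 10408083 and 10408202.

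H1f1 stood at 9.97 and 10.24 at 0 h and at 8.71 and 8.63 at 6 h in pretreated cells, and at 9.41, 10.12, 8.05 and 8.46 on the matching naive arrays. It fell by 1.43 ± 0.30 (limma adjusted p = 0.0199), and its naive fall was 1.51. H1f5 stood at 10.20 and 11.21 at 0 h and at 9.17 and 9.39 at 6 h. It fell by 1.43 ± 0.32 (limma adjusted p = 0.0312), where the pairs did not overlap but the 0 h arrays were far apart. H2ac15 stood at 11.93 and 12.20 and then at 11.06 and 11.25, a fall of 0.91 ± 0.16 (limma adjusted p = 0.00672). H3 feature 10408083 stood at 13.40 and 13.62 and then at 12.66 and 12.70, and it fell by 0.83 ± 0.13 (limma adjusted p = 0.00352). H2ac4 and H2bc3, with the largest naive falls, did not pass in pretreated cells. H2ac4 stood at 7.82 and 8.48 and then at 6.99 and 7.3, a change of -1.0 ± 0.32 (limma adjusted p = 0.139), and H2bc3 was at -1.09 ± 0.30 (limma adjusted p = 0.0751). H1f2, at -0.79 ± 0.20 (limma adjusted p = 0.0584), and H2B feature 10403980, at -0.58 ± 0.15 (limma adjusted p = 0.0602), were the closest that were not called. Neither H2bc4 (0.19 ± 0.38) nor H2bc22 (-0.01 ± 0.13) was called.

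**Figure D4:**
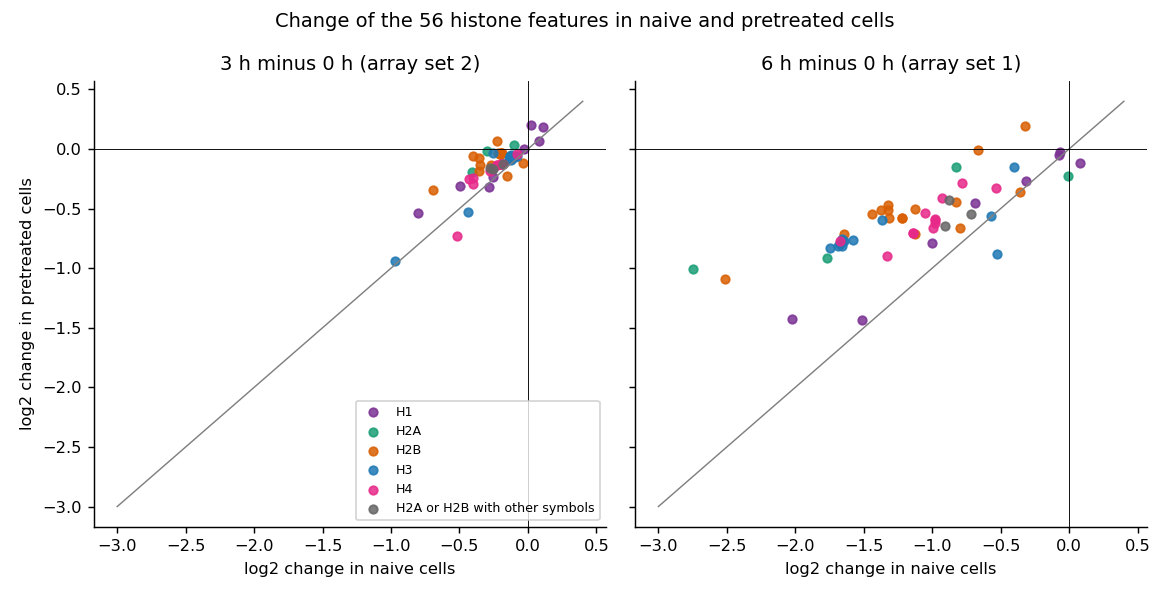
Log2 change of the 56 histone features in naive cells (horizontal) and pretreated cells (vertical), at 3 h in set 2 and 6 h in set 1; each point is 1 feature coloured by class and the grey line marks equal change. At 6 h 52 of 56 points lie above the line, with the shared H3 features near -1.66 in naive and -0.79 in pretreated cells.

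Set side by side at 6 h, the shared H3 features were higher in pretreated than in naive cells. Of 56 features 9 were higher and none lower, against 0.0956% higher and 0.0562% lower over all features, and the median difference was 0.54. The shares were 0.402% and 0.261% among annotated features and 0.258% and 0.183% among those with a mean of at least 6.5. All 9 are shared H3 features, at 1.0 to 1.10, which is about 200% to 214% of the naive level. The highest, H3 feature 10408083, stood at 11.51 and 11.66 in naive and at 12.66 and 12.70 in pretreated cells, with a wide gap between the pairs. Its difference was 1.10 ± 0.13 (limma adjusted p = 0.0107). Averaged, the H3 set differed by 1.02 ± 0.13 (limma adjusted p = 0.0237). The tenth H3 feature, 10494402, was at 0.87 ± 0.17 (limma adjusted p = 0.0944). The 3 H3 genes with features of their own were not called, with H3c7 at 0.23 ± 0.17, H3c4 at 0.11 ± 0.19 and H3c15 at -0.66 ± 0.38. H3c7 is dim. H3c15 was under the limit of 6.5 on all 6 h arrays, at 6.49 and 6.03 in naive and at 5.45 and 5.75 in pretreated cells. In 43 of 56 features both pretreated 6 h arrays lay above both naive ones, against 21.1% of all features. H2ac15 at 0.90 ± 0.16 (limma adjusted p = 0.0603), H2ac4 at 1.48 ± 0.32 (limma adjusted p = 0.124) and H2bc3 at 1.28 ± 0.30 (limma adjusted p = 0.14) did not pass. The 7 shared H2B features lay at 0.55 to 0.77, and H1f2 and H2bc8 at -0.12 and 0.07. No member was called by limma without naive 6 h replicate 1, without either pretreated 6 h array, with the set fitted alone or with no array-set term.

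Whether the 6 h response itself differed by pretreatment was tested as the difference of the responses. No member was called by limma, against 0.0506% higher and 0.0816% lower over all features. At an unadjusted p under 0.05 there were 26, all of them with a smaller fall in pretreated cells. That count includes shared features that repeat the same symbol set, and the share of all features at that threshold was not counted. Some alternative fits, given at the end of the report, did call members in this comparison. In the fit used here the median difference was 0.52, and 52 of 56 changes were less negative in pretreated than in naive cells. The closest was H3 feature 10403941, at 0.91 ± 0.18 (limma adjusted p = 0.101), with a 95% interval of 0.52 to 1.29. H2ac4 was at 1.74 ± 0.45 (limma adjusted p = 0.235), H2bc3 at 1.43 ± 0.42 (limma adjusted p = 0.309) and H1f1 at 0.08 ± 0.42, with an interval of -0.84 to 1.0. The difference of the pretreated responses, 6 h minus 3 h, gave no call by limma, against 0% in either direction over all features, with 23 members at an unadjusted p under 0.05 and a median of -0.47.

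Genes that serve histone RNA and protein are described by counts, without a test of the list, and are read against the share of all features called. That share was 6.3% lower and 5.63% higher in naive cells at 6 h, and 1.47% lower and 2.45% higher in pretreated cells. At 3 h it was 1.05% lower and 2.7% higher in naive cells, and 0.444% lower and 1.42% higher in pretreated cells. The lists were chosen with earlier results of these data known. Of 19 measured genes of histone mRNA processing, Cpsf2, a cleavage subunit, rose by 0.54 ± 0.15 and Cpsf1 fell by 0.39 ± 0.11 in naive cells at 6 h, and 17 were not called (median -0.07), so either direction is near the share over all features. The stem-loop binding protein Slbp stood at 9.61 and 9.31 at 0 h and 9.24 and 9.20 at 6 h, a change of -0.24 ± 0.22 (limma adjusted p = 0.676). At 3 h Slbp was at -0.88 ± 0.22 (limma adjusted p = 0.0547). Npat, the coactivator of histone gene transcription, was at -0.29 ± 0.18 at 6 h (limma adjusted p = 0.404).

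Of 20 genes of histone chaperones and import, 6 fell and 1 rose at 6 h in naive cells, with the 1 rise near the share over all features. Asf1b, which hands H3 and H4 to other chaperones, stood at 10.66 and 10.72 at 0 h and 8.81 and 8.47 at 6 h. It fell by 2.05 ± 0.18 (limma adjusted p = 2.91e-05). Chaf1b and Chaf1a, subunits of the CAF-1 complex that places H3 and H4 behind the replication fork, were at -1.61 ± 0.27 and -0.92 ± 0.24. Daxx, a chaperone of the replacement histone H3.3, rose by 1.45 ± 0.17 at 6 h and by 1.97 ± 0.17 at 3 h. In pretreated cells Asf1b fell by 1.52 ± 0.18 at 6 h and the other 19 were not called at that time, while Daxx rose by 1.42 ± 0.17 at 3 h.

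Among 10 replacement and variant histone genes, 3 fell at 6 h in naive cells. Cenpa, the centromere H3, was at -2.28 ± 0.18, H2az2 at -1.90 ± 0.18 and H2ax at -1.17 ± 0.15. In pretreated cells the same 3 fell, with Cenpa at -1.59 ± 0.18, H2az2 at -1.18 ± 0.18 and H2ax at -0.66 ± 0.15. H3f3a, a gene for the replacement histone H3.3, lay at -0.07 ± 0.15 (limma adjusted p = 0.902) on a dim feature.

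Cell cycle genes were counted over the same arrays, and their part in the histone result was not tested. Of 33 S-phase genes 13 fell, 1 rose and 19 were not called in naive cells at 6 h (median -0.81). The cyclin gene Ccna2 was at -2.67 ± 0.19, the ribonucleotide reductase subunit Rrm2 at -1.94 ± 0.27 and the helicase subunit Mcm7 at -1.83 ± 0.26, while Pcna, the replication clamp, rose by 0.59 ± 0.14. All 13 measured mitosis genes fell (median -2.08), with Kif20a at -3.02 ± 0.20. In pretreated cells 4 S-phase genes fell and 29 were not called (median -0.46) and the same 13 mitosis genes fell (median -1.67). At 3 h no mitosis gene was called in either group by limma. In naive cells 2 S-phase genes fell at 3 h, E2f2 at -1.21 ± 0.25 and Cdk2 at -0.78 ± 0.13, against 1.05% of all features. In pretreated cells 1 S-phase gene fell at 3 h, against 0.444% of all features. Of 13 cell cycle inhibitors 2 rose and 3 fell in naive cells at 6 h, with Rbl1, a relative of the retinoblastoma protein, up by 2.06 ± 0.23 and Cdkn2c at -1.40 ± 0.16.

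**Figure D5:**
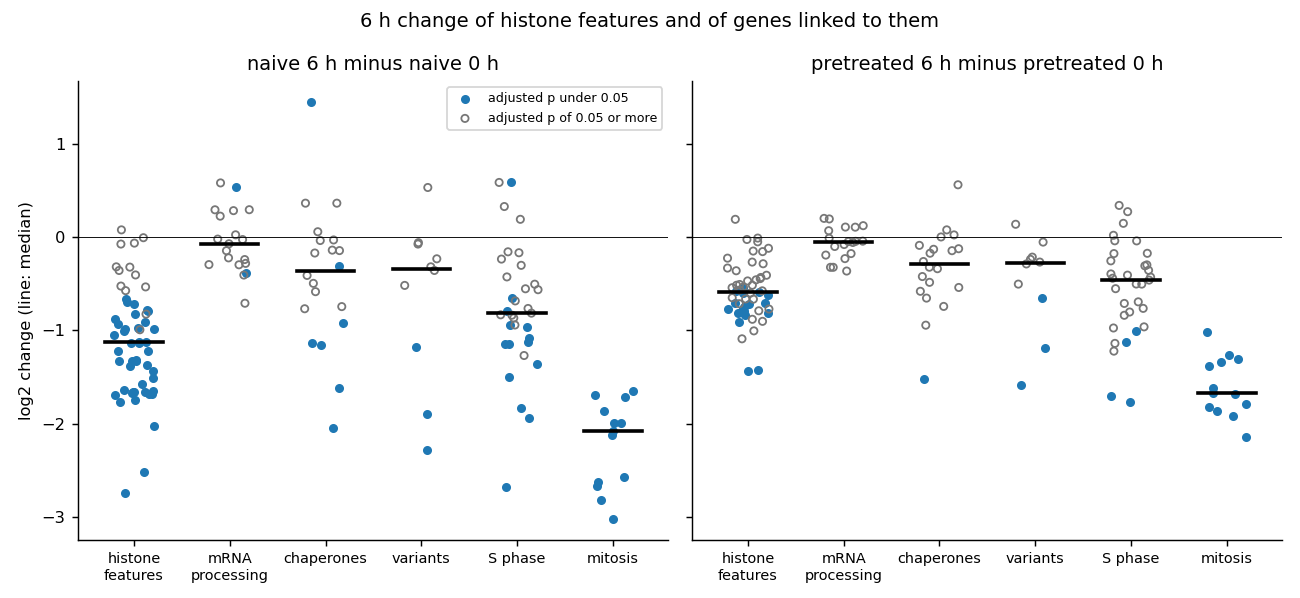
Log2 change from 0 h to 6 h of the 56 histone features and of the measured genes of 5 lists, in naive cells (left) and pretreated cells (right); each point is 1 feature or gene, filled where the adjusted p is under 0.05, and the line is the median. Histone features lie at a median of -1.12 and -0.59, mitosis genes at -2.08 and -1.67, and mRNA processing genes near 0.

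Markers of other cells were set beside these falls. The mean level of the 3 stem and progenitor markers went from 7.19 to 6.75 in naive and from 7.19 to 6.84 in pretreated cells over 6 h, with 1 of 3 called lower in each. The mean of the 4 dendritic cell markers went from 6.49 to 7.83 and from 7.02 to 8.03. Of these 4, 2 were called higher in naive and 1 in pretreated cells, and their median log2 changes were 0.52 and 0.29. The mean of the 8 macrophage markers went from 12.79 to 12.72 and from 12.82 to 12.71. Markers of neutrophils, T cells, B cells, erythroid cells, fibroblasts and mast cells had list means of 5.50 to 7.29 in set 1. Their part in the histone result was not tested.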

How the data were processed

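The authors measured RNA of 16 samples on Affymetrix mouse gene arrays of 1 colour and deposited log2 intensities. How background, scaling and probe summary were handled was not given in the sources used here. Genes were named from the platform annotation, which lists 23410 of the 35557 features and can be old. The members and lists were chosen with earlier results of these data known. The values were used as deposited in limma 3.58.1 (R 4.3.3), with 1 mean for each of 8 cells of group and array set (2 arrays each), 8 residual and 2.98 prior degrees of freedom and contrasts within a set. The fit was tested on simulated data. Named members are, for each of 12 comparisons, the 6 largest called changes in each direction and the 2 uncalled features with the smallest adjusted p, with a few more named after their values were seen. List genes needed a feature of 1 symbol. Promoters came from RefSeq GRCm38.p6. Protein sequences are not analysed here. Alternatives covered features tested, normalization, array set, variance, call rule, members and each array left out. Averaging features of 1 symbol set was added after seeing the data. Order within a set is not a replicate number in the labels. Figures used Python 3.11.15 and matplotlib 3.10.9.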

Additional observations from a re-analysis of the deposited data

Results flagged for a closer look

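H4c8 on naive 0 h replicate 2 stood at 7.79, apart from the other 3 naive 0 h arrays (6.93, 6.80 and 6.77). It was the 1 of 112 groups of 4 arrays whose extreme array lay past Dixon's limit. By chance alone about 1 of 20 groups pass that limit, and the 4 naive 0 h arrays span both array sets. Replicate 2 is 1 of the 2 naive 0 h arrays behind the called 6 h fall of H4c8, at -1.05 ± 0.25 (limma adjusted p = 0.0161).

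In naive cells the 6 h and 3 h responses differed for 17 features, all with the larger fall at 6 h. Among the largest differences were H2ac4 at -2.34, H3 feature 10408083 at -1.60, H3 feature 10408202 at -1.57, H3 features 10408239 and 10404049 at -1.55 each and H3 feature 10404065 at -1.54 on the log2 scale. Time and array set cannot be told apart in these values.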

How the results depend on the processing

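Counts are members called at the threshold. For naive cells at 6 h the count of 43 was 17 with members of 1 symbol and 25 with symbol sets averaged, and 31 to 43 with an array left out. For pretreated cells at 6 h the count of 21 was 13 with no array-set term or with array weights, 9 with the set fitted alone, 2 with a 2-fold limit, 4 with members of 1 symbol, 7 with sets averaged and 2 to 25 with an array left out. Pretreated against naive cells at 6 h, 9 in the report, gave 0 with no array-set term, the set alone or members of 1 symbol, 1 with sets averaged, 17 with array weights and 0 to 10 with an array left out. For the difference of naive responses, the count of 17 became 26 with quantile normalization, 10 with arrays centred on their median, 27 with an additive set term, 31 with none, 2 with members of 1 symbol, 3 with sets averaged and 0 to 19 with an array left out. The difference of 6 h responses, 0 in the report, was 4 with quantile normalization and 8 with an additive set term. The 1 call at 3 h in naive cells became 0 with the set alone or a 2-fold limit and 0 to 1 with an array left out, and the median of the members reversed to 0.082 with no array-set term. The counts of 0 in the other comparisons remained 0 with each array left out. Why a count moved was not tested, except that a 2-fold limit and fewer members lower it by construction.

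Order within a set, used as a replicate block, gave 15 for pretreated against naive cells at 6 h, 10 for the difference of 6 h responses, 28 for the difference of naive responses, 2 for naive cells at 3 h and 2 for the 0 h difference. The labels do not say that this order pairs arrays, and deviations of same-order arrays correlated at -0.09 to 0.66, over 0.1 in 11 of 12 pairs. Of the median changes, 348 of the alternative values moved by less than the spread between replicates, 29 moved more and 1 reversed. A reversal was counted only in comparisons where a member was called in the main fit. Changes of sign elsewhere stand among the other counts. For pretreated against naive cells at 0 h, the median of 0.03 became -0.06 with members of 1 symbol. With 2 arrays a group and set the number of arrays limits the precision, and shared features limit how far single genes can be told apart.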
